A study of Drosophila melanogaster and Drosophila melanogaster
Drosophila virilis and Drosophila virilis with 9 samples.

Results

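The *Drosophila melanogaster* actin genes *Act5C*, *Act42A*, *Act57B*, *Act79B*, *Act87E* and *Act88F* were followed through single cells and intact embryos at gastrulation. They are 6 of the 15600 *D. melanogaster* genes listed in at least 1 of the 7 Drop-seq tables, and the same 6 stood among the 10154 genes of a pooled table of selected cells and the 17492 genes of the bulk count table. They were picked by name, with their levels across the numbered groups of the pooled table already known, so those levels are given as a description with no test. Drop-seq joins each cell to a barcoded bead and counts captured mRNA molecules by unique molecular identifiers (UMIs). Replicates 1 and 2 of Drop-seq mixed *D. melanogaster* cells with cells of *D. virilis* and are called mixed-species here, replicates 3 to 7 held *D. melanogaster* cells and are called single-species, and 1 bulk mRNA-seq library of unfixed intact *D. melanogaster* embryos stood beside these 7 libraries. All *D. melanogaster* embryos were hand-picked at stage 6, came from a 1 h egg lay aged for 2 h 30 min (3 h 30 min in *D. virilis*), and carried the transgenes P{vnd::dsRED} and P{st.2::Gal4} in a y1 w1118 background, so that no group lacks either transgene. The dissociated cells were strained at 20 μm and fixed in 80% methanol.

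Actin is the monomer of the filaments that drive cell shape change, cytokinesis and muscle contraction. *Drosophila* encodes cytoplasmic actins, which nearly all cells make, and muscle actins, which assemble into the thin filaments of the sarcomere. *Act5C* and *Act42A* are the cytoplasmic actins; *Act57B* and *Act87E* are best known from embryonic and larval muscle, *Act79B* from adult muscles of the thorax and legs, and *Act88F* from the indirect flight muscle. At stage 6 the ventral furrow takes the presumptive mesoderm into the embryo under control of the transcription factors twist (*twi*) and snail (*sna*), and muscle differentiates only hours later. The coding sequences of these genes are much alike. How reads that match more than 1 actin gene were counted is not given in the sources used here, so the small values of the rarely detected members are uncertain.

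The 7 libraries held 11329 barcodes and 102732563 UMIs, between 8855169 and 21429520 UMIs per library. A barcode with at least 1000 UMIs, at least 90% of them on *D. melanogaster* genes, was taken as a *D. melanogaster* cell, which gave 7999 cells, 5102 of them with at least 3000 UMIs. The medians ran from 1936 UMIs per cell in replicate 6 to 6330 in replicate 2. The bulk library had 6608592 reads on genes. The pooled table held 1297 cells with at least 12504 UMIs each, and each of their barcodes occurred in exactly 1 library table. Its column names end in a number from 1 to 11 whose meaning is not stated; it is called the suffix here. Of the library barcodes, 6 occurred in more than 1 library. No doublets were removed, and those within 1 species cannot be seen.

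The cytoplasmic actins made up nearly all actin mRNA of the stage 6 embryo, and *Act5C* most of it. In *D. melanogaster* cells summed per library, *Act5C* (X:5900861-5905399, plus strand of the BDGP6 build) had 2206 and 2160 CPM (counts-per-million, scaled by the UMIs on genes) in the mixed-species libraries, against 2354, 2108, 2292, 2626 and 2313 CPM in the single-species libraries. *Act42A* (2R:6013910-6015689, minus strand) had 305 and 235 CPM in the mixed-species libraries, against 254, 275, 315, 295 and 292 CPM in the single-species libraries. For both genes the ranges of the 2 kinds of library overlapped. Over the 7 libraries *Act5C* averaged 2294 ± 171 CPM and *Act42A* 282 ± 28.6 CPM (SD, n = 7). *Act5C* took 87.4% ± 1.18 and *Act42A* 10.8% ± 1.02 of the UMIs of the 6 genes.

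*Act87E* (3R:13425983-13428375, plus strand) was the next in order and the only muscle actin above 10 CPM. It had 42.8 and 41.9 CPM in the mixed-species libraries, against 30.4, 38.1, 43.2, 47.3 and 49.5 CPM in the single-species libraries, a mean of 41.9 ± 6.28 CPM (SD, n = 7) and 1.60% ± 0.220 of the actin UMIs. Its annotated span overlaps *lncRNA:CR45591* on the other strand, whose reads an unstranded library cannot tell apart from its own.

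*Act88F* (3R:15439969-15442177, plus strand), *Act57B* (2R:20944021-20946431, plus strand, overlapping *snoRNA:660*) and *Act79B* (3L:21985210-21987190, plus strand) were near the limit of detection. In all *D. melanogaster* cells together they had 215, 163 and 41 UMIs, against 187671 UMIs of *Act5C*. *Act88F* averaged 2.88 ± 1.86 CPM, *Act57B* 2.06 ± 1.23 CPM and *Act79B* 0.538 ± 0.202 CPM (SD, n = 7). The ranges of *Act88F* (1.07 to 5.89 CPM) and *Act57B* (0.713 to 4.44 CPM) overlapped, so their order is not fixed. *Act79B* reached at most 0.778 CPM, inside the range of *Act57B*. The 3 genes above them in the order, *Act5C*, *Act42A* and *Act87E*, did not overlap with each other or with these in any library.

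**Figure D1:**
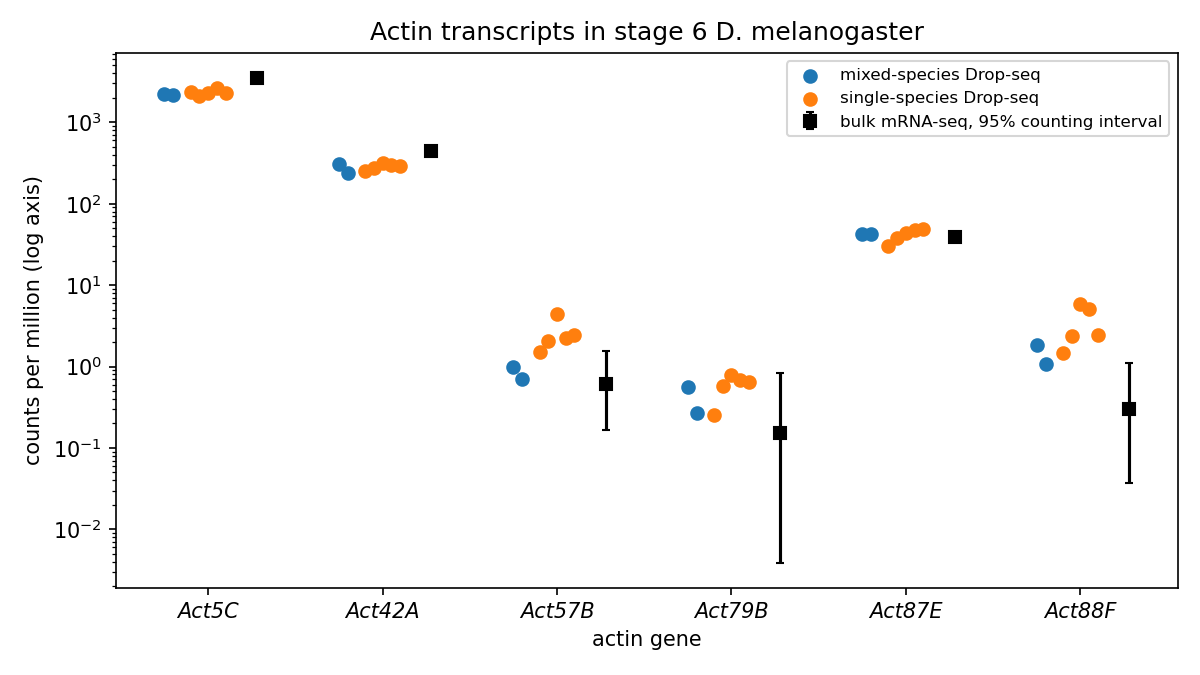
CPM (log axis) of each actin gene in summed *D. melanogaster* cells of the mixed-species (blue) and single-species (orange) Drop-seq libraries, 1 point per library, and in the 1 bulk library (black, exact 95% counting interval). *Act5C*, *Act42A* and *Act87E* form separate levels near 2294, 282 and 41.9 CPM, while the Drop-seq points of the other 3 lie between 0.255 and 5.89 CPM.

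The bulk library gave the same order for the 3 abundant genes. Drop-seq cells averaged 2294 ± 171 CPM of *Act5C* (n = 7), against 3528 CPM in bulk (23313 reads, exact 95% interval 3483 to 3573). They averaged 282 ± 28.6 CPM of *Act42A*, against 448 CPM in bulk (2961 reads), and 41.9 ± 6.28 CPM of *Act87E*, against 38.7 CPM in bulk (256 reads, 34.1 to 43.8). The log2 ratio of Drop-seq over bulk, with 1 CPM added, was -0.62 ± 0.104 for *Act5C*, -0.67 ± 0.151 for *Act42A* and 0.10 ± 0.226 for *Act87E* (SD over 7 libraries), beside a median of -0.76 over 8786 genes with at least 1 CPM in either assay. By library *Act87E* stood between 0.34 below and 0.35 above bulk on the log2 scale, and both cytoplasmic actins were below bulk in all 7. With 1 bulk library there is no replicate check and no test. In bulk RNA, fewer cells of a type and less RNA per cell cannot be told apart.

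Bulk reads accumulate with transcript length, so levels between genes were also set per kilobase of annotated exon (2.978 kb for *Act5C*, 1.626 kb for *Act42A* and 1.989 kb for *Act87E*). Per kilobase, bulk held 1185 CPM of *Act5C*, 275.6 CPM of *Act42A* and 19.5 CPM of *Act87E*, and Drop-seq 770.4 ± 57.3, 173 ± 17.6 and 21.1 ± 3.16 CPM (SD, n = 7). The order of the 3 genes was the same on either scale. Drop-seq counts tags at the 3′ end, for which the length adjustment need not apply. The bulk library had 4 reads of *Act57B*, 2 of *Act88F* and 1 of *Act79B*, all with intervals that reach below 0.2 CPM, so their ratios to bulk rest on a handful of reads.

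The *D. virilis* cells of the mixed-species libraries show how much of each *D. melanogaster* actin is counted in cells that lack the gene. *Act5C* stood at 2.81% (replicate 1) and 1.21% (replicate 2) of its level in *D. melanogaster* cells, *Act42A* at 2.33% and 0.886%, and *Act87E* at 3.38% and 1.49%. These 3 lie around the median of all genes with at least 10 CPM, 2.92% over 5054 genes in replicate 1 and 1.30% over 5045 genes in replicate 2. *Act57B* was different: the *D. virilis* cells held 3.41 and 0.729 CPM, 347% and 102% of the *D. melanogaster* level of 0.981 and 0.713 CPM. *Act88F* stood at 79.3% and 68.2% of the *D. melanogaster* level, on 14 and 7 UMIs in *D. virilis* cells. For *Act57B* the UMIs were 33 and 7 in *D. virilis* cells and 7 and 8 in *D. melanogaster* cells. All genes of at least 10 CPM had lower percentages than *Act57B* and *Act88F* in both libraries. Both actins were below that level, so this ranks them against more abundant genes only. In the mixed-species libraries neither gene was therefore clearly above the level counted in cells of the other species. *Act79B* had 1 UMI and 0 UMIs in *D. virilis* cells, too few for a comparison.

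**Figure D2:**
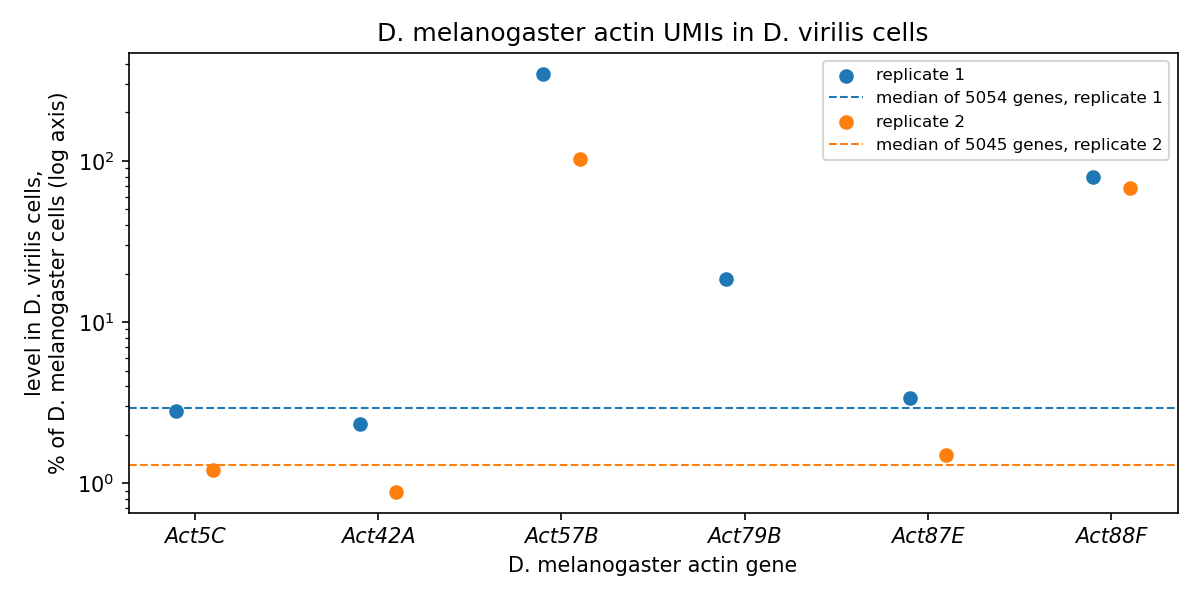
Level of each *D. melanogaster* actin gene in *D. virilis* cells as a percentage of its level in *D. melanogaster* cells of the same library (log axis), for replicate 1 (blue) and replicate 2 (orange), with the median of all genes of at least 10 CPM as dashed lines. *Act5C*, *Act42A* and *Act87E* sit near the dashed lines, *Act57B* (347% and 102%) and *Act88F* (79.3% and 68.2%) far above them; *Act79B* in replicate 2, at 0, is not drawn.

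*Act5C* mRNA was seen in nearly every cell, *Act42A* in about 1 cell of 2 and *Act87E* in a minority. After cells were thinned at random to 3000 UMIs each, an *Act5C* UMI was present in 98.8% ± 0.321 of *D. melanogaster* cells (SD, n = 7 libraries, 5102 cells), an *Act42A* UMI in 53.2% ± 3.89 and an *Act87E* UMI in 8.20% ± 1.59. *D. virilis* cells thinned alike had an *Act5C* UMI in 17.3% (replicate 1, 1097 cells, median depth before thinning 5591 UMIs) and 9.87% (replicate 2, 709 cells, 9344 UMIs), an *Act42A* UMI in 1.73% and 0.987%, and an *Act87E* UMI in 0.547% and 0.564%. All 3 shares in *D. melanogaster* cells were far above these. *Act88F* was detected in 1.00% ± 0.680, *Act57B* in 0.514% ± 0.258 and *Act79B* in 0.0561% ± 0.0716 of *D. melanogaster* cells. In the mixed-species libraries *Act57B* had a UMI in 0.912% and 0.282% of *D. virilis* cells (replicates 1 and 2), above the 0.260% and 0.121% of *D. melanogaster* cells of the same libraries. The single-species libraries, with 0.481 to 0.896%, have no such cells to compare with.

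The 3 detectable actins differed in how evenly their mRNA was spread. At 3000 UMIs per cell the variance-to-mean ratio of *Act87E* was 1.42 times that of genes with a like mean, rank 230 of 5628 genes. For *Act42A* it was 0.913 times, rank 5527, which is among the most even of all, and for *Act5C* 1.03 times, rank 1680. In the 1297 pooled cells thinned to 12000 UMIs, every cell held at least 8 *Act5C* UMIs (median 32, highest 64). *Act42A* ran from 0 to 15 UMIs with a median of 4. *Act87E* had a median of 0 and a highest value of 13, and the 130 cells with most of it held 72.5% of its UMIs.

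The suffixes of the pooled table separate groups of cells by their patterning genes. Suffix 4 (298 cells) had 637 CPM of *twi* and 399 CPM of *sna*. Suffix 9 (48 cells) had 515 and 343 CPM of these, with 762 CPM of *zfh1*, a transcription factor of the mesoderm, and 508 CPM of *srp*, a GATA factor of blood, fat body and endoderm. Suffix 2 (49 cells) combined 298 CPM of *twi* and 213 CPM of *sna* with 326 CPM of *hkb* and 276 CPM of *fkh*, regulators of the terminal gut primordia. Suffix 8 (66 cells) combined 200 CPM of *twi* and 164 CPM of *sna* with 241 CPM of *Abd-B* and 179 CPM of *byn*, posterior regulators. Suffix 3, with 632 cells the largest, led with the ectodermal genes *sog* (630 CPM) and *SoxN* (599 CPM), and suffix 6 with the amnioserosa gene *peb* (732 CPM). Suffix 5 had the head gene *oc* at 273 CPM, below *SoxN* (505 CPM) and *sog* (484 CPM). Suffix 10 had *oc* at 374 CPM, below the dorsal genes *Ance* (509 CPM) and *Doc1* (410 CPM).

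*Act87E* was high in suffix 4 and suffix 2 and low in the others. In suffix 4 it had 167 CPM over all cells, and by library the lowest was 109, the median 166 and the highest 220 CPM (7 libraries). In suffix 2 it had 114 CPM, with a lowest of 56.1, a median of 117 and a highest of 196 CPM over 7 libraries of 5 to 11 cells each. No library of any other suffix with at least 5 cells exceeded the 36.9 CPM that replicate 5 had in suffix 3. Suffix 9 had 23.4 CPM (17.1 to 30.7 CPM over 5 libraries), suffix 3 14.8 CPM (4.00 to 36.9 over 7) and suffix 7 11.7 CPM. Suffixes 8, 6, 10 and 5 had 5.46, 4.87, 2.85 and 2.65 CPM. Suffixes 1 and 11, with 4 and 7 cells, had 0 UMIs, where 3 UMIs would have been 43.9 and 23.6 CPM.

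The cytoplasmic actins showed no such pattern. *Act5C* lay between 2372 CPM (suffix 11) and 2977 CPM (suffix 2). Suffixes 2, 4 and 9, which hold *twi* and *sna* cells, had its 3 highest levels (2977, 2921 and 2911 CPM), but their libraries overlapped with those of the other suffixes. *Act42A* lay between 236 CPM (suffix 11, 7 cells) and 366 CPM (suffix 1, 4 cells), and between 317 and 361 CPM in the suffixes with more than 10 cells. The rarely detected members had at most 10 UMIs in any suffix but 3 and 4. The exceptions were 42 UMIs of *Act88F* and 26 of *Act57B* in suffix 3, and 38 of *Act88F* and 23 of *Act57B* in suffix 4. These came to 1.65 to 4.40 CPM.

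**Figure D3:**
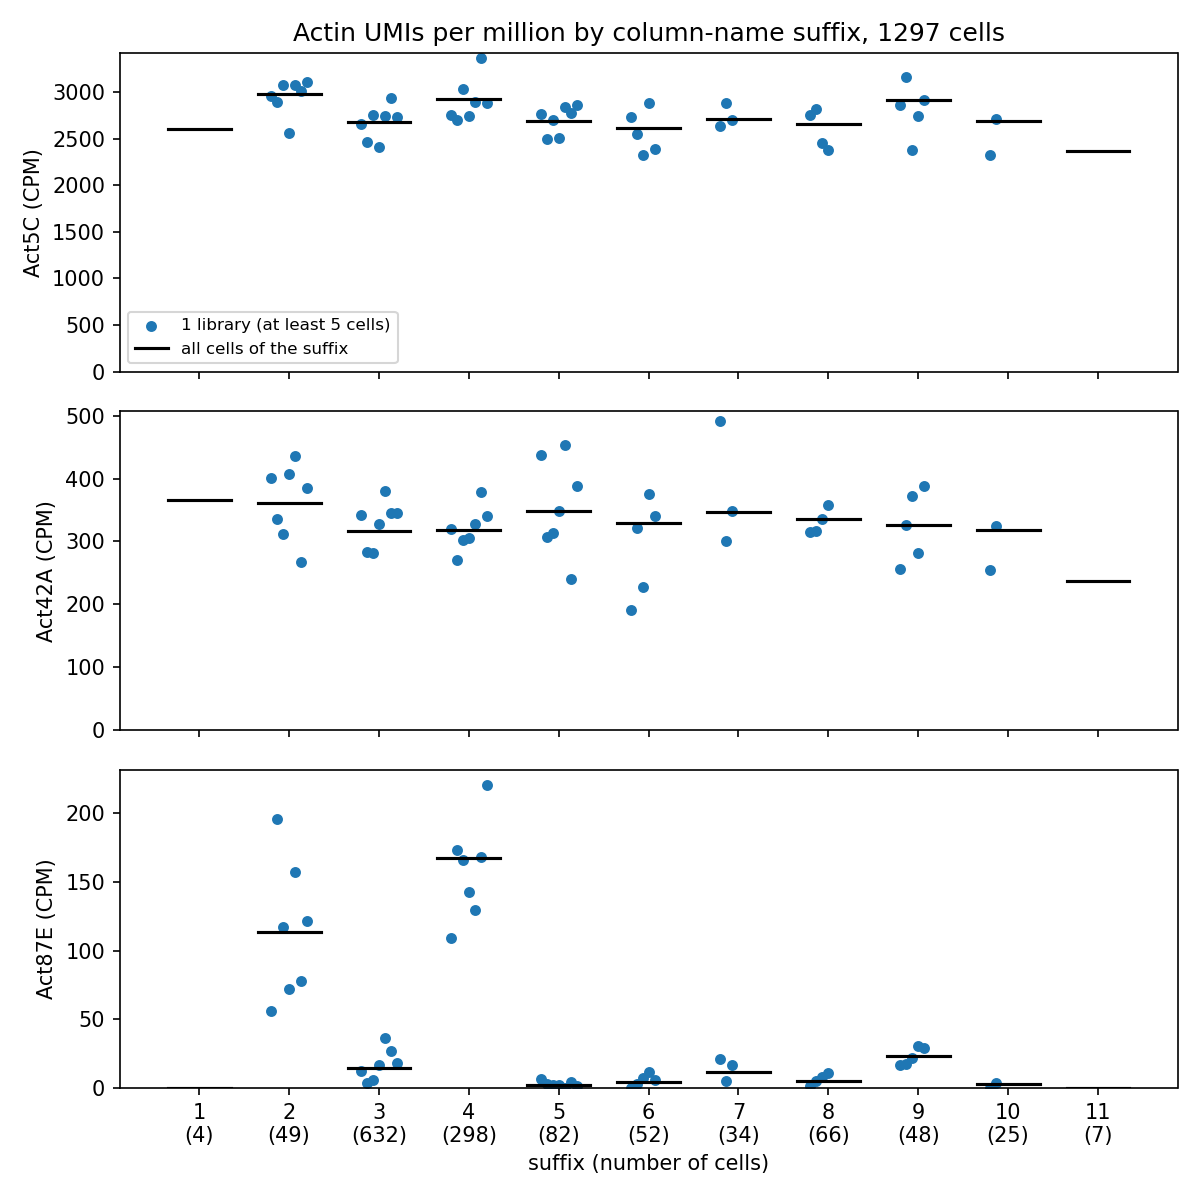
CPM of *Act5C*, *Act42A* and *Act87E* in the 1297 pooled cells by column-name suffix, with the number of cells in brackets; points are libraries with at least 5 cells of that suffix and lines are all cells of the suffix. *Act87E* reaches 167 CPM in suffix 4 and 114 CPM in suffix 2 and stays at or below 23.4 CPM over all cells of each other suffix, while *Act5C* stays between 2372 and 2977 CPM.

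*Act87E* was detected more often in cells with UMIs of both *twi* and *sna* than in cells with neither. Cells were sorted by *twi* and *sna* at 12000 UMIs per cell, a split chosen after the suffix levels were seen and given without a test. Of the 458 cells with both genes, 55.5% had an *Act87E* UMI (exact 95% interval 50.8 to 60.1%), against 2.83% (1.71 to 4.38%) of the 672 cells with neither. *Act87E* stood at 139 CPM in the cells with both genes and 3.01 CPM in those with neither. All 44 cells with at least 5 *Act87E* UMIs had *twi* or *sna*, which 625 of the 1297 cells had; 34 of the 44 were in suffix 4, 7 in suffix 3 and 3 in suffix 2. A cell with 0 UMIs at this depth may still hold the mRNA, so these shares are rates of detection. The intervals cover counting error only.

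Among the cells with both *twi* and *sna*, the level of *Act87E* differed by suffix. Suffix 4 (284 such cells) had 171 CPM and suffix 2 (32 cells) 160 CPM. In suffix 3, whose cells are otherwise ectodermal by their markers, the 66 cells with both genes had 110 CPM, against 2.76 CPM in its 468 cells with neither. The 44 cells of suffix 9 had 22.2 CPM, between 11.6 and 32.4 CPM in 5 libraries, against 109 to 225 CPM in the 7 libraries of suffix 4. The 23 cells of suffix 8 had 9.73 CPM on 6 UMIs. An *Act87E* UMI was present in 68.0% (62.2 to 73.3%) of these cells in suffix 4 and 71.9% (53.3 to 86.3%) in suffix 2, against 9.09% (2.53 to 21.7%) in suffix 9 and 13.0% (2.78 to 33.6%) in suffix 8. Over all its cells suffix 9 had 515 CPM of *twi*, against 637 CPM in suffix 4. It had 58.6 CPM of the muscle transcription factor gene *Mef2*, against 166 CPM, and 762 CPM of *zfh1*, against 257 CPM. The median depth was 21812 UMIs per cell in suffix 9 and 24212 UMIs in suffix 4. The part of marker levels and depth in the *Act87E* difference was not tested.

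**Figure D4:**
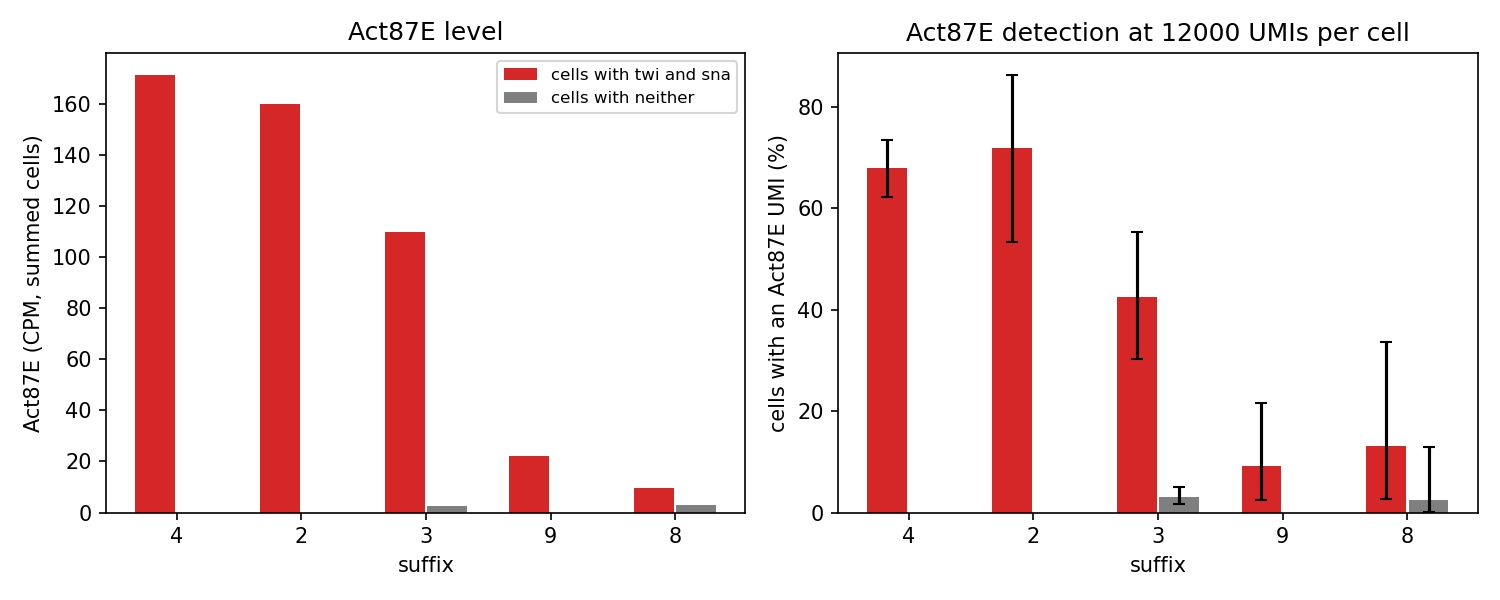
*Act87E* in cells with UMIs of both *twi* and *sna* (red) and of neither (grey), by suffix, as CPM of the summed cells (left) and as the share of cells with a UMI at 12000 UMIs per cell (right, exact 95% interval); groups under 20 cells are not drawn. Cells with both genes had 171, 160 and 110 CPM in suffixes 4, 2 and 3, but 22.2 CPM in suffix 9 and 9.73 CPM in suffix 8.

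*Abd-B*, a Hox gene of the posterior abdomen, was used to divide the cells with *twi* and *sna* further. The 58 cells with *twi*, *sna* and an *Abd-B* UMI had 59.8 CPM of *Act87E*, against 152 CPM in the 400 cells with *twi* and *sna* but no *Abd-B*. By library the cells with *Abd-B* ranged from 21.1 to 97.7 CPM (4 libraries with at least 5 such cells) and those without from 102 to 179 CPM (7 libraries). The cells with and without *Abd-B* were spread differently over the suffixes. Of the 58 with *Abd-B*, 20 were in suffix 8, at 9.09 CPM, against 3 of the 400 without. Suffix and *Abd-B* are mixed in the pooled values. Within suffix 3 the 10 cells with *Abd-B* had 16.8 CPM on 5 UMIs, against 131 CPM in 56 cells without. No library had 5 cells with *Abd-B* there, and the difference was not tested. Within suffix 4 the values were 113 CPM in 24 cells with *Abd-B* and 178 CPM in 260 cells without, and there the library ranges (82.0 to 162 CPM with *Abd-B* and 117 to 234 CPM without) overlapped. *Act5C* differed little between these cells, at 2789 CPM with *Abd-B* and 2899 CPM without.

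To compare regions of the embryo with libraries as replicates, cells were gated by marker genes that include no actin. Gates were called on cells thinned to 3000 UMIs, and full counts were then summed per library and gate. The ventral gate asked for *twi* and *sna* together and for no dorsal gene (432 cells). The dorsal gate took cells with at least 2 of 6 dorsal genes (703 cells) and the lateral gate those with at least 2 of 5 neurogenic ectoderm genes (981 cells). The posterior gate held 43 cells, the anterior gate 75, and the pole gate, cells with at least 3 UMIs of the germ cell gene *pgc*, 188. The summed mesoderm markers ran from 3580 to 4523 CPM in the ventral sums, 179 to 461 CPM in the dorsal sums and 395 to 769 CPM in the lateral sums, so the gates enriched but did not purify their cells. In every gate comparison *Act57B*, *Act79B* and *Act88F* fell under the filter on low counts.

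*Act87E* was 18.7-fold higher in ventral than in dorsal cells, and *Act5C* 1.15-fold higher. *Act87E* had a lowest of 111, a median of 134 and a highest of 194 CPM over the 7 ventral sums, against 1.53, 7.48 and 18.7 CPM over the 7 dorsal sums. Every ventral value lay above every dorsal value, as for 8.16% of the 5444 genes tested in either direction. The counts behind these values were 1228 ventral and 76 dorsal UMIs, and *Act87E* passed the filter on low counts through its ventral sums. The means were 145 ± 31.0 CPM in ventral and 8.33 ± 6.42 CPM in dorsal cells (SD, n = 7 each), a fitted log2 change of 4.22 ± 0.186 (SE). No p is given for this or the other actins in these sums, since all but 228 of the 432 ventral cells are in the pooled table on which the members were picked. Of all 5444 genes 26.7% were called, 12.7% higher in the ventral gate and 14% lower.

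The cytoplasmic actins were nearly level along this axis. *Act5C* averaged 2561 ± 202 CPM in ventral and 2247 ± 198 CPM in dorsal cells (SD, n = 7 each), with ranges of 2369 to 2951 and 1957 to 2543 CPM that overlap. It was higher in the ventral gate in 6 of 7 libraries, a fitted log2 change of 0.20 ± 0.0366 (SE). *Act42A* averaged 294 ± 43.5 CPM in ventral and 283 ± 36.1 CPM in dorsal cells, higher in 4 of 7 libraries, with a fitted log2 change of 0.06 ± 0.058 (SE).

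The fit was therefore repeated on the 228 ventral and 556 dorsal cells that are not in the pooled table. *Act87E* then averaged 121 ± 58.5 CPM in ventral and 10.5 ± 8.91 CPM in dorsal cells (SD, n = 7 each), higher in 7 of 7 libraries. Its log2 change was 3.55 ± 0.279 (SE). No p is given for *Act87E* here either, since it again passed the filter through its ventral sums, at 300 ventral and 60 dorsal UMIs. *Act5C* had a log2 change of 0.13 in these cells and missed the threshold (edgeR adjusted p = 0.233), as did *Act42A* with 0.08 (edgeR adjusted p = 0.642). Ventral cells were deeper than dorsal ones (library medians of 8582 to 21309 against 6584 to 14379 UMIs), and *Act5C* averaged 2416 ± 155 CPM in cells of at least 10000 UMIs against 1947 ± 122 CPM in those of 3000 to 10000. Among gated cells of 3000 to 10000 UMIs *Act5C* had a log2 change of 0.21 (edgeR adjusted p = 0.0205), and *Act87E*, at 100 ventral and 11 dorsal UMIs, was too low for the filter but higher in 7 of 7 libraries (103 ± 58.5 CPM in ventral and 4.45 ± 5.03 CPM in dorsal cells, SD, n = 7 each).

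The ventral sums were also set against the lateral gate, so this comparison shares its ventral cells with the last one. *Act87E* averaged 145 ± 31.0 CPM in ventral and 6.75 ± 4.80 CPM in lateral cells (SD, n = 7 each), from 111 to 194 and from 0.437 to 13.7 CPM. The groups did not overlap, as for 6.46% of the 5477 genes tested. The fitted log2 change was 4.54 ± 0.199 (SE), given without a p for the same reason as above. In this comparison 16.1% of genes were called, 6.1% higher in the ventral gate and 10% lower. In cells outside the pooled table *Act87E* averaged 121 ± 58.5 CPM in ventral and 8.44 ± 6.65 CPM in lateral cells, on 300 ventral and 44 lateral UMIs, higher in 7 of 7 libraries. The log2 change there was 3.65 ± 0.353 (SE), given without a p, since the filter was again passed through the ventral sums. *Act5C* averaged 2561 ± 202 CPM in ventral and 2227 ± 138 CPM in lateral cells and was higher in 7 of 7 libraries, with a fitted log2 change of 0.14 ± 0.0313 (SE). It missed the threshold in cells outside the pooled table (log2 change 0.14, edgeR adjusted p = 0.167) and in cells of 3000 to 10000 UMIs (log2 change 0.19, edgeR adjusted p = 0.124). *Act42A* averaged 294 ± 43.5 CPM in ventral and 287 ± 44.2 CPM in lateral cells, higher in 4 of 7 libraries by CPM, with a fitted log2 change of -0.03 ± 0.0568 (SE). The fit applies TMM scaling factors and weights libraries by their counts, which the CPM means do not, so a small fitted change can differ in sign from the difference of the means.

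**Figure D5:**
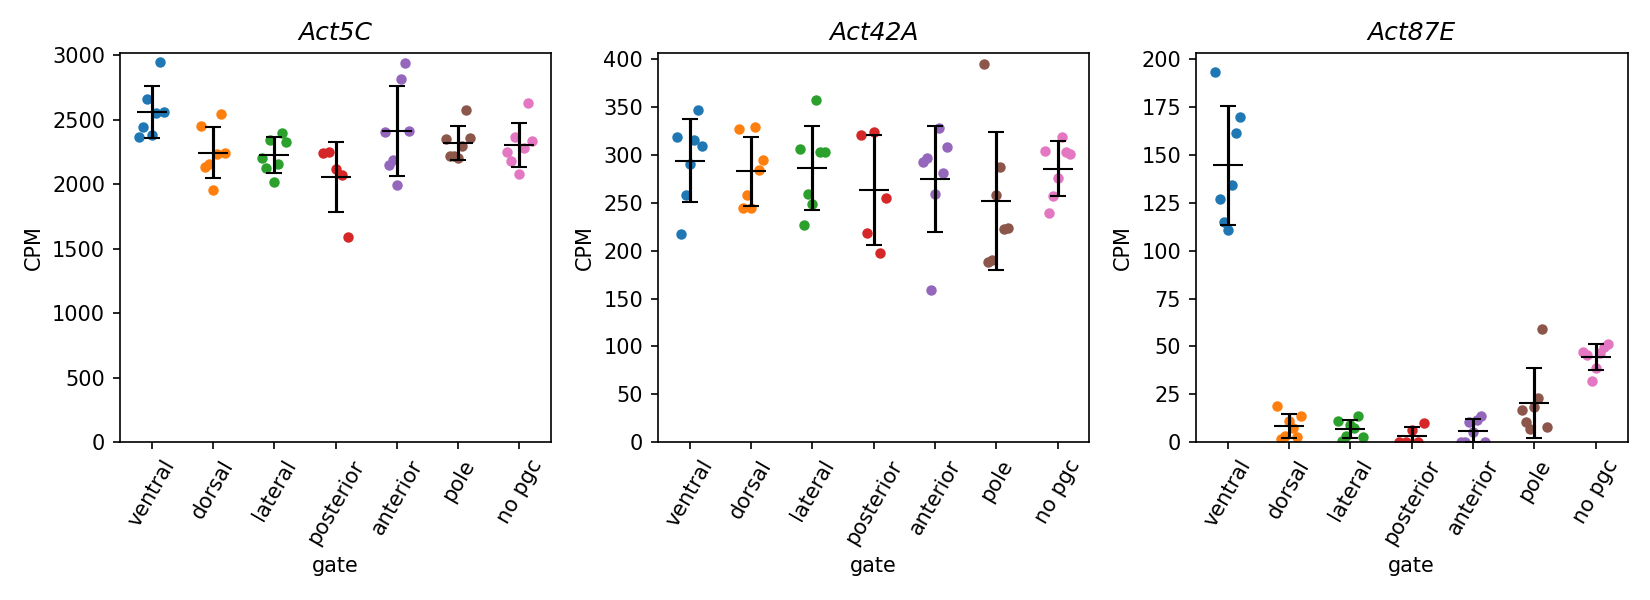
CPM of *Act5C*, *Act42A* and *Act87E* in marker-gated cells; points are libraries with at least 5 cells in the gate, and bars are the mean and SD over those libraries. *Act87E* is above 110 CPM in all 7 ventral sums and below 19 CPM in all dorsal, lateral, posterior and anterior sums. *Act42A* overlaps between all gates. *Act5C* overlaps between all gates but the posterior (1589 to 2251 CPM) and the ventral (2369 to 2951 CPM).

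Along the other axis no difference was shown for the cytoplasmic actins. The full sums used the 5 libraries with at least 5 cells in both gates. *Act5C* averaged 2056 ± 272 CPM in posterior and 2232 ± 180 CPM in anterior cells (SD, n = 5 each). Its log2 change was -0.12 ± 0.0969 (SE). *Act42A* averaged 263.1 ± 57.7 CPM in posterior and 263.2 ± 60.9 CPM in anterior cells, a log2 change of 0.12 ± 0.238 (SE). Both are given without a p, since some of these cells are in the pooled table. Of 1330 genes tested 4.89% were called, 2.48% higher in the posterior gate and 2.41% lower, and 4.74% had groups that did not overlap. *Act87E* had 2 UMIs in posterior and 4 UMIs in anterior cells, both at about the floor of 3 UMIs, and no fold is given. The SE of *Act5C* here, 0.0969, was larger than the 0.0366 of the ventral over dorsal fit.

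*Act87E* was lower in the pole gate of germ cell precursors than in the mix of all cells without *pgc*, which includes the mesoderm. It was not lower than in each region: the pole mean of 20.3 ± 18.2 CPM lay above the means of the dorsal (8.33 CPM), lateral (6.75 CPM), anterior (5.94 CPM) and posterior (3.23 CPM) gates, differences that were not tested. In the pole gate *Act87E* had a lowest of 6.90, a median of 16.7 and a highest of 59.3 CPM over 7 libraries (40 UMIs), against 32.2, 46.7 and 51.2 CPM in cells without *pgc* (2989 UMIs). The ranges overlapped through replicate 6, whose 8 pole cells had the 59.3 CPM; in the other 6 libraries the pole value was the lower one. The log2 change was -1.52 ± 0.253 (SE), given without a p, since cells of the pooled table are among those without *pgc*. Of 6570 genes tested 20.3% were called lower in the pole gate. No pole-gate cell is in the pooled table. With cells of that table left out on the other side too, the log2 change was -1.23 ± 0.260 (SE). It is given without a p, since its counts, 40 pole and 1148 other UMIs, lay mostly in the cells without *pgc*. The pole cell markers summed to 4568 to 8369 CPM in the pole gate and 48.9 to 79.4 CPM in cells without *pgc*, and the mesoderm markers to 267 to 1438 CPM in the pole gate and 1205 to 1677 CPM in cells without *pgc*; the part of these mesoderm cells in the difference was not tested.

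*Act42A* was also lower in the pole gate, and *Act5C* was not shown to differ. *Act42A* averaged 252 ± 72.3 CPM in pole cells and 286 ± 29.0 CPM in cells without *pgc* (SD, n = 7 each), lower in 6 of 7 libraries. Its log2 change was -0.28 ± 0.0948 (SE), given without a p as above. With cells of the pooled table left out it was -0.26 ± 0.0957 (SE; adjusted p = 0.0280 by edgeR). Over 15 settings the log2 change of *Act42A* ran from -0.48 to -0.24. It missed the threshold only in the full sums without the library block, without replicate 3 or without replicate 7. *Act5C* averaged 2319 ± 131 CPM in pole cells and 2304 ± 173 CPM in cells without *pgc*, higher in 5 of 7 libraries by CPM. Its fitted log2 change had the other sign, -0.05 ± 0.0528 (SE). With cells of the pooled table left out it was 0.0056 (edgeR adjusted p = 0.945).

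Between mixed-species and single-species libraries no gene was called by edgeR: 0% of 8183 genes passed. Without adjustment 387 genes had a p under 0.05, and 8 were called by DESeq2. *Act57B* had 0.981 and 0.713 CPM in the mixed-species libraries, against 1.53, 2.03, 4.44, 2.27 and 2.42 CPM in the single-species libraries. The groups did not overlap, which also held for 9.59% of the genes tested. Its log2 change of -1.52 ± 0.487 (SE) missed the threshold (edgeR adjusted p = 0.967). *Act88F* averaged 1.45 ± 0.532 CPM in mixed-species and 3.46 ± 1.92 CPM in single-species libraries, with overlap (log2 change -1.19, edgeR adjusted p = 0.967). The log2 changes of *Act5C*, *Act42A* and *Act87E* were -0.06, -0.04 and 0.07.

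*Act87E* was found in the same cells as mesoderm genes. In cells thinned to 3000 UMIs, 255 of the 403 cells with *Act87E* also had *twi*, 189 had *sna* and 84 had *Mef2*, the muscle transcription factor. The log2 odds ratio of co-detection, computed per library with 0.5 added, averaged 2.95 ± 0.447 for *twi*, 2.21 ± 0.718 for *sna* and 1.84 ± 0.393 for *Mef2* (SD, n = 7), positive in 7 of 7 libraries each. It was -0.95 ± 0.587 for *zen*, a homeobox gene of the dorsal side, negative in 7 of 7 libraries, and -0.64 ± 0.454 for the ectodermal gene *sog*, positive in 1. For *Act42A* the same 5 ratios lay between -0.00077 and 0.19. *Act87E* and *Act42A* were near independent of each other, at 0.27 ± 0.370. Pairs with *Act5C* carry little information, as 5039 of 5102 cells had it, and the other members were in too few cells. All cells of a library share its free RNA, so these ratios are descriptions.

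Likeness of pattern was measured by Pearson's correlation of log2(CPM + 1) over 47 sums of suffix and library (9 suffixes, at least 5 cells each), among 6635 genes with at least 100 UMIs in the pooled table. The 47 sums share libraries and depth, so the values are descriptions. The genes most like *Act87E* were *CG14688* (0.880), *CG12177* (0.854) and *CG3036* (0.821). For *Act42A* they were *Sec61gamma*, a subunit of the endoplasmic reticulum translocon (0.689), *Prosbeta3*, a proteasome subunit (0.652), and *Nop60B*, a pseudouridine synthase (0.647). For *Act5C* they were *dgt1* (0.603), *CG4164* (0.599) and *sle* (0.592). The highest value of *Act88F*, 0.595 with the cell cycle kinase *Cdk1*, lies in the same range as that of *Act5C*.

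Of 69 listed genes of the actin cytoskeleton, 61 were in the tables and 44 were tested between the ventral and dorsal gates. Of these 8 rose and 9 fell, beside 12.7% of all genes called higher and 14% lower, with a median log2 change of -0.04 beside 0.01 over all 5444 genes. *chic*, which encodes the actin monomer binder profilin, averaged 1915 ± 95.2 CPM in ventral and 1637 ± 127 CPM in dorsal cells (SD, n = 7 each; log2 change 0.24, edgeR adjusted p = 1.73e-05). The GTPase *Rho1* averaged 561 ± 25 CPM in ventral and 486 ± 21.2 CPM in dorsal cells. Its log2 change was 0.22 (edgeR adjusted p = 0.000488). The adaptor *cindr* and the Arp2/3 subunit *Arpc5* rose by 0.50 and 0.26 on the log2 scale. Related genes went either way. The myosin heavy chain gene *zip* fell by 0.21 (edgeR adjusted p = 0.00291). Of other Arp2/3 subunits, *Arpc2* rose by 0.29 (edgeR adjusted p = 0.00203), and *Arpc3A*, at -0.22, missed the threshold (edgeR adjusted p = 0.0529). List genes are given for the full sums only.

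Among the falls named by the same rule, *tmod*, which caps the pointed end of filaments, averaged 92.3 ± 17.2 CPM in ventral and 165 ± 18.2 CPM in dorsal cells (SD, n = 7 each; log2 change -0.83, edgeR adjusted p = 1.12e-07). *jar*, the myosin VI motor, averaged 67.0 ± 14.3 CPM in ventral and 117 ± 19.2 CPM in dorsal cells (log2 change -0.80, edgeR adjusted p = 1.04e-06). The spectraplakin *shot*, the Rac activator *mbc* and *alpha-Spec* fell by 1.08, 0.73 and 0.57 on the log2 scale. The naming rule took only genes of 1 sign in all 7 libraries. In the ventral over lateral comparison, which shares the ventral sums, 5 of 45 tested list genes rose and 7 fell, beside 6.1% and 10% of all genes. In the pole comparison 9 of 51 rose and 14 fell, beside 21% and 20.3% of all genes. In the posterior over anterior comparison 0 of 23 rose and 1 fell, beside 2.48% and 2.41% of all genes.

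Few other genes of the sarcomere could be measured in these cells. Of 22 listed sarcomere genes, all in the tables, 2 passed the filter in the ventral over dorsal comparison. *Tm1*, a tropomyosin with both muscle and non-muscle forms, averaged 368 ± 45.4 CPM in ventral and 437 ± 41.0 CPM in dorsal cells (SD, n = 7 each; log2 change -0.25, edgeR adjusted p = 0.000373), and *Msp300*, a giant nesprin, averaged 11.1 ± 5.29 CPM in ventral and 8.02 ± 2.56 CPM in dorsal cells (edgeR adjusted p = 0.46). The other 20 were too low to test at this depth. In the ventral over lateral comparison 3 were tested and *Tm1* fell, beside 10% of all genes called lower. In the pole comparison 6 were tested and 2 rose, beside 21% of all 6570 genes called higher. *Tm1* rose by 0.27 and the troponin C gene *TpnC4* by 1.31 on the log2 scale (edgeR adjusted p = 0.00587 and 0.0293).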

How the data were processed

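In the deposited Drop-seq tables each value is an unnormalized UMI count of 1 gene in 1 barcode, and in the deposited bulk table a read count per gene, from a poly(A)-selected, unstranded library of 200 ng of RNA, per the labels. STAR, HTSeq and the build BDGP6 are named in the submitters' processing notes; their roles are not given in the sources used here. In bulk, 45.2% of counted reads on no feature and 10.1% not unique were left out. Suffixes come from the pooled table's column names, and its cells were assigned to libraries by barcode; 74 cells had an actin count that differed from the library table. Positions and exon lengths come from the Ensembl annotation of BDGP6.

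CPM was computed over UMIs or reads on genes. Cells were thinned once with a fixed seed. Gates needed 5 cells per library. Dorsal genes were *zen*, *Doc1*, *Doc2*, *Doc3*, *ush* and *tup* (no *sna* or *twi*) and lateral genes *sog*, *brk*, *vnd*, *ind* and *SoxN* (no *sna*, *twi* or dorsal gene). The posterior gate needed 2 of the genes *Abd-B*, *byn* and *cad*, and the anterior gate 2 of *btd*, *ems*, *hbn* and *oc*, with none of the opposite genes. Sums were tested with edgeR 4.0.16 in R 4.3.3 (TMM, filterByExpr, quasi-likelihood, two-sided, Benjamini-Hochberg over all genes tested, FDR 0.05), with the library as a block between gates, since both gates come from each library; SEs derive from the F statistic. Nothing says whether libraries are separate embryo collections, so p-values measure the spread between libraries. Alternatives were DESeq2 1.42.0, its size factors, no filter, no block, libraries left out, stricter gates, thinned counts, cells outside the pooled table and, chosen after seeing the data, cells of 3000 to 10000 UMIs. The fits were tested on simulated data. The sums and figures were made with matplotlib 3.10.9, pandas 2.3.3, numpy 2.4.6 and scipy 1.17.1 under Python 3.11.15.

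All 6 actins were named in every comparison. List genes were named where past the threshold, of 1 sign in all libraries and of at least 10 CPM, up to 5 per direction by log2 change. For likeness, the 3 highest were named. *zip*, *Arpc2* and *Arpc3A* were named outside this rule. The members, lists and gates were chosen with earlier results of these data known. The *D. virilis* bulk library was not used here.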

Additional observations from a re-analysis of the deposited data

Results flagged for a closer look

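In 6 of 49 sets of 4 to 10 libraries, 1 library stood apart from the rest by Dixon's test at the 95% level, which chance does in about 1 set of 20. *Act87E* in the pole gate was 59.3 CPM in replicate 6, from 8 cells, against 6.90 to 23.0 CPM in the other 6 libraries. *Act5C* in the pole gate was 2579 CPM in the same library, against 2204 to 2360 CPM in the others. *Act57B* in cells without *pgc* was 5.04 CPM in replicate 5, against 0.704 to 2.15 CPM in the others. *Act5C* in posterior cells was 1589 CPM in replicate 7, against 2076 to 2251 CPM in 4 libraries. *Act42A* in anterior cells was 159 CPM in replicate 3, against 259 to 328 CPM. *Act5C* in suffix 2 was 2555 CPM in replicate 4, against 2890 to 3104 CPM.

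Genes named as *D. virilis* actins had 28 UMIs in *D. melanogaster* cells of replicate 3, a single-species library, beside 51816 UMIs of the *D. melanogaster* actins (0.054%). The other 4 single-species libraries had 0 such UMIs.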

How the results depend on the processing

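The log2 change of *Act87E* ran from 3.55 to 5.10 against dorsal and from 3.65 to 5.81 against lateral cells over 15 settings each, lowest in both for cells outside the pooled table. The log2 change of *Act87E* in the pole gate ran from -1.79 to -1.23 over 15 settings. *Act5C* ran from 0.13 to 0.24 against dorsal and from 0.12 to 0.20 against lateral cells over 16 settings each. Against lateral cells its log2 change was 0.142 with the replicate block, given without a p as above. With no replicate block it was 0.143 and missed the threshold. *Act42A* was not called between these gates and turned sign: to -0.10 with 2 UMIs needed for gate detection (dorsal), and to 0.054 with thinned counts, 0.042 outside the pooled table, 0.024 in cells of 3000 to 10000 UMIs and 0.03 without replicate 5 (lateral; -0.054 to 0.030 with 1 library left out). Between posterior and anterior it turned to -0.12 outside the pooled table and -0.18 without replicate 3 (-0.18 to 0.26 with 1 library left out), and *Act5C* to 0.019 outside the pooled table. In the pole gate *Act5C* turned to 0.0056 outside the pooled table. Between kinds of library *Act42A* turned to 0.14 without replicate 2 (-0.23 to 0.14) and *Act87E* to -0.027 without replicate 3 (-0.027 to 0.14). None of these was past the threshold, and the cause was not tested.

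Counts of genes called moved by more than 1.5 times under the settings given here, and the cause was not tested. Ventral over dorsal gave 1451 genes, and 830 with DESeq2, 771 with 2 UMIs for detection, 480 with thinned counts, 537 outside the pooled table and 284 in cells of 3000 to 10000 UMIs. Ventral over lateral gave 883, and 467, 359, 399 and 196 under the last 4 of these. Posterior over anterior gave 65, and 157 with no filter, 11 with thinned counts and 41 outside the pooled table; with 2 UMIs for detection no library qualified. The pole gate gave 2712, and 1452 with thinned counts. Mixed over single gave 0, and 8 with DESeq2 and 29 with no filter. Leaving out 1 library gave 1239 to 1386, 756 to 866, 47 to 77, 2277 to 2702 and 0 to 19 (19 without replicate 3) in the same order. With 0.1 CPM added, the Drop-seq over bulk log2 ratio became 1.41 for *Act57B*, 1.27 for *Act79B* and 2.66 for *Act88F*, against 0.84, 0.41 and 1.45 with 1 CPM, on 4, 1 and 2 bulk reads. The rarely detected actins were under the filter on low counts in every gate comparison.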

Other observations

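Ventral-gate cells, which have *twi* and *sna* and no dorsal gene, were divided by further genes after the suffix levels had been seen, and the values are given without a test. The 27 ventral cells with *Abd-B* had 42.6 CPM of *Act87E* on 21 UMIs. The 29 with *gcm* or the head gene *btd* had 79.6 CPM on 65 UMIs (12 and 166 CPM in the 2 libraries with at least 5 such cells). The 376 with none of these 3 genes had 148 CPM on 1142 UMIs. The 120 cells with both *hkb* and *srp*, genes shared by the endoderm primordia, had 43.6 CPM on 90 UMIs and a mean over 7 libraries of 47.6 ± 26.4 CPM (SD). The 100 of them outside the pooled table had a mean of 29.2 ± 19.1 CPM (SD, 7 libraries). *Act5C* in the same groups was 2498, 2731, 2546 and 2563 CPM.

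In the *D. virilis* cells, the gene that the tables name *ActE1* had 48.1 CPM in replicate 1 and 50.0 CPM in replicate 2. Those named *ActC2*, *ActD1* and *ActE2* had between 0.417 and 2.68 CPM.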
